A study of Mus musculus with 6 samples.

Results

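Rhox6 and Rhox9 are homeobox genes of the Rhox cluster on the mouse X chromosome, and their transcripts were followed in primordial germ cell-like cells (PGCLCs), cells made in culture from embryonic stem cells to model the founders of the germ line. The pair was chosen by its read counts in these libraries, because both genes were higher in Ezh2 KO, and makes up 2 of the 37991 genes in the count table. The difference between the groups is therefore given as a description and carries no test. Levels are in CPM, reads scaled to library size. The 3 Ezh2 KO libraries came from PGCLCs labelled Ezh2-/-, CreERT2, whose medium had received 4-hydroxytamoxifen dissolved in ethanol at the start of aggregation. The 3 Ctrl libraries came from PGCLCs labelled Ezh2f/f, CreERT2, which had received ethanol only. Everything else was shared: the C57BL/6 background, the floxed line with its tamoxifen-activated Cre, 2 days of epiblast-like induction with bFGF, Activin A and KSR, then aggregation with BMP2, SCF, LIF and EGF, and sampling at day 4. Aggregates were dissociated and sorted before RNA was taken. The sources used here do not name the promoter behind the Cre, the sorting gate, the number of clones or whether the line is male or female, and nothing says that replicates were separate inductions, so p-values measure only the spread between these libraries, which may be partly technical.

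Rhox genes encode transcription factors with a homeodomain, the DNA-binding fold shared by homeotic genes, and they are expressed mainly in testis, ovary, placenta and germ cells. Rhox6 and Rhox9, also known as Psx1 and Psx2 from their discovery in placenta, are transcribed in fetal germ cells as well. Genes of this cluster are known to be kept silent in somatic cells by DNA methylation of their promoters. Ezh2 is a histone methyltransferase and the catalytic subunit of PRC2, the polycomb complex that places H3K27me3 on silent genes, and the comparison asks what its removal does to germ cell transcripts.

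The coding sequences of the pair are alike enough to share some reads, so they are shown first, from the GENCODE M21 transcripts of 4 exons (GRCm38, Rhox6 on the plus strand and Rhox9 on the minus strand of X). Both coding sequences are 681 bases long without the stop codon, and they align without gaps. They differ at 64 bases, an identity of 90.6%. The longest stretch without a difference is 161 bases in exon 2, from coding base 167 to 327, and a read that falls wholly inside it cannot be assigned to either gene.
Rhox6 and Rhox9: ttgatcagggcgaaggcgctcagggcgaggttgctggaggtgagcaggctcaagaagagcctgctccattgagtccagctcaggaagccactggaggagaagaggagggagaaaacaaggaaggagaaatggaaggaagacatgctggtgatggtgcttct
Differences crowd in the later part of exon 2, where 22 of 90 bases, from coding base 373 to 462, are unlike. Capitals mark the bases that differ.
Rhox6: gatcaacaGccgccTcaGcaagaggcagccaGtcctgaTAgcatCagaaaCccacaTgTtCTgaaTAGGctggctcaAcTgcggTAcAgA
Rhox9: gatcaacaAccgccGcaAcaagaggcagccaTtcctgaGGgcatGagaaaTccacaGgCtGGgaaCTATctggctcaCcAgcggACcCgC
Exons 3 and 4 hold the end of the coding sequence, from base 543 to 681, and include the last part of the homeobox. They are shown because the 2 exons differ in how far they diverged: 1 of 46 coding bases of exon 3 is unlike, against 19 of 93 in exon 4, and capitals again mark the differences.
Rhox6: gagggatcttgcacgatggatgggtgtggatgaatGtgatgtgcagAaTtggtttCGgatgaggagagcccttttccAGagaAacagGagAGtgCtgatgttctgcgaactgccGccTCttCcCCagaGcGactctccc
Rhox9: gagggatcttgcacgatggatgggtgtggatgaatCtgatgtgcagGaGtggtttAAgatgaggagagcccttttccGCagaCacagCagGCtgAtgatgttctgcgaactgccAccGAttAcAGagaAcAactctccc

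**Figure D1:**
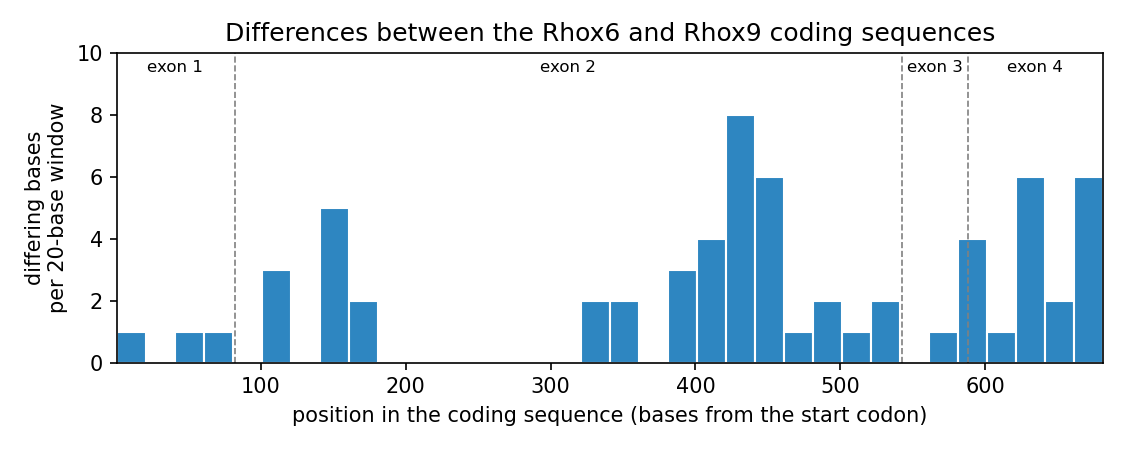
Differing bases between the Rhox6 and Rhox9 coding sequences in 20-base windows (bars), by position in bases from the start codon; dashed lines mark the exon ends. The windows inside the 161-base stretch of exon 2 hold no difference, and identity is 96.3%, 91.1%, 97.8% and 79.6% in the coding parts of exons 1 to 4.

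Most of either transcript is nonetheless distinct over 50 bases. Of the 961 windows of 50 bases in the Rhox6 transcript, 159 (16.6%) also occur in Rhox9, and they occur in no other gene of the annotation. For Rhox9 the same 159 windows are 19.09% of its 833. At 100 bases the shared windows number 62, or 6.81% for Rhox6 and 7.92% for Rhox9. The tandem copies elsewhere in the cluster are far more alike: 53.7% to 93.4% of the 50-base windows of the 5 Rhox2 genes counted recur in another gene, and 66.1% to 95.6% for the 7 Rhox4 genes. The sources used here name neither the read length nor the handling of reads with several matches.

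The Ezh2 transcript, which checks the labels, averaged 67.1% of the Ctrl level in Ezh2 KO. It stood at 40.8, 67.1 and 70.0 CPM in Ezh2 KO replicates 1 to 3, against 91.8, 78.1 and 95.3 CPM in Ctrl replicates 1 to 3. Reads were counted over the whole gene, so the deleted part could not be seen by itself, and the source of the remaining reads was not tested. The groups did not overlap, but edgeR's quasi-likelihood test was not passed (log2 fold change -0.58 ± 0.23 SE, adjusted p = 0.976, unadjusted p = 0.0361), and an exact two-sided permutation test gave p = 0.1, the smallest possible with 3 libraries against 3. Leaving out Ezh2 KO replicate 1, its lowest library, gave a log2 fold change of -0.37. With all libraries and a term for the replicate number, edgeR gave -0.61 (adjusted p = 0.481). Of the 4 core PRC2 genes, Ezh2 included, 0 passed, and of all 16420 tested genes 0 passed as well. Of the others, Eed was at 258 ± 43.4 CPM in Ezh2 KO and 252.5 ± 36.6 CPM in Ctrl, and the scaffold Suz12 at 180 ± 64.6 CPM in Ezh2 KO and 178 ± 65.9 CPM in Ctrl. Ezh1, the paralog of Ezh2, was at 33.5 ± 18.3 CPM in Ezh2 KO and 42.2 ± 8.45 CPM in Ctrl (SD, n = 3 each).

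The Rhox6 levels of the groups did not overlap. Rhox6 stood at 95.4, 148 and 156 CPM in Ezh2 KO replicates 1 to 3, against 47.8, 48.9 and 87.4 CPM in Ctrl replicates 1 to 3. The lowest Ezh2 KO library, replicate 1, lay close above the highest Ctrl library, replicate 3. The means were 133 ± 33.0 CPM in Ezh2 KO and 61.4 ± 22.6 CPM in Ctrl (SD, n = 3 each), a log2 fold change of 1.12 ± 0.29 (SE). Against the Ctrl library of the same number, Rhox6 was 2.00, 3.03 and 1.78 times as high in Ezh2 KO replicates 1 to 3.

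Rhox9 followed the same order of libraries. It stood at 81.5, 122 and 128 CPM in Ezh2 KO replicates 1 to 3, against 40.9, 43.3 and 74.3 CPM in Ctrl replicates 1 to 3. Again the groups did not overlap, and again Ezh2 KO replicate 1 and Ctrl replicate 3 were the nearest libraries of the groups. The means were 111 ± 25.4 CPM in Ezh2 KO and 52.8 ± 18.6 CPM in Ctrl (SD, n = 3 each), a log2 fold change of 1.07 ± 0.28 (SE). The ratios of same-numbered libraries were 1.99, 2.82 and 1.73. Ezh2 KO replicate 1, lowest of its group in Rhox6 and Rhox9, was also the lowest in Ezh2. All Ezh2 KO libraries lay above all Ctrl libraries in 4.07% of the 16420 genes tested, and a log2 fold change of at least 1 in 1.66%; both held for 0.609%. Nothing is read from these shares, because that contrast chose the pair. In bulk libraries like these, a change in the share of cells that express a gene and a change in its RNA per cell cannot be told apart.

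**Figure D2:**
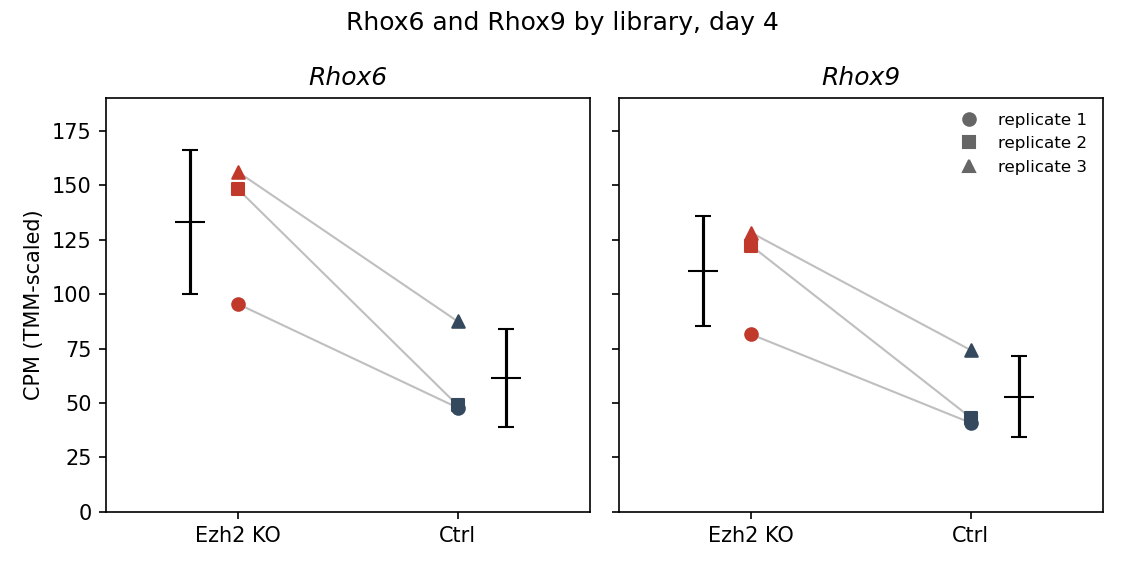
Rhox6 and Rhox9 in CPM by library; symbols are replicates, grey lines join libraries of the same number, and the black bars beside the points are the mean ± SD of 3 libraries. Rhox6 ran from 95.4 to 156 CPM in Ezh2 KO and from 47.8 to 87.4 CPM in Ctrl, and Rhox9 from 81.5 to 128 CPM in Ezh2 KO and from 40.9 to 74.3 CPM in Ctrl.

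The spread inside each group was well above the counting error. Rhox6 drew 1378 to 6316 reads per library and Rhox9 1220 to 5191, so counting alone gives an error of 1.26% to 2.69% for Rhox6 and 1.39% to 2.86% for Rhox9. The coefficient of variation between libraries was 24.7% in Ezh2 KO and 36.8% in Ctrl for Rhox6, and 23.0% in Ezh2 KO and 35.2% in Ctrl for Rhox9.

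Per length of transcript, the genes were at nearly the same level. With 1010 bases for Rhox6 and 882 for Rhox9, the levels in RPKM (reads scaled to transcript length and library size) were 132 ± 32.6 for Rhox6 and 125 ± 28.8 for Rhox9 in Ezh2 KO, and 60.8 ± 22.3 for Rhox6 and 59.9 ± 21.1 for Rhox9 in Ctrl (SD, n = 3 each). Within a library the RPKM of the genes were as near as 94.5 and 92.4 (Ezh2 KO replicate 1) and 48.4 and 49.1 (Ctrl replicate 2). These differences between the genes were small beside the spread between libraries of a group.

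The balance of reads between the genes scarcely moved while their sum varied. Rhox6 took 53.9%, 54.8% and 54.9% of the reads of the pair in Ezh2 KO replicates 1 to 3, against 53.9%, 53.0% and 54.1% in Ctrl replicates 1 to 3. The summed level was 177, 270 and 284 CPM in Ezh2 KO and 88.7, 92.2 and 162 CPM in Ctrl. Counted as 1 gene, by adding the deposited counts of both, the pair had a log2 fold change of 1.10. Whether reads that match both genes were dropped or counted for each is unknown, and the sum and the balance both depend on it. After each gene's mean was removed, Rhox6 and Rhox9 differed by 0.036 on the log2 scale (root mean square over the 6 libraries).

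The standing of the pair in the contrast that chose it is given as a description. Of the 3316 tested genes with a mean log2 CPM of at least 6, 0.121% had a log2 fold change of at least 1. These are Rhox6, Rhox9 and 2 others, named after their values were seen. The mean Ctrl level of each of these genes lay below that cut, so they entered the set through their Ezh2 KO level. Nothing is read from this share either. Sfmbt2, a polycomb group gene, was at 113 ± 22.9 CPM in Ezh2 KO and 51.6 ± 13.6 CPM in Ctrl. Gm8624, a predicted gene, was at 92.3 ± 19.0 CPM in Ezh2 KO and 41.0 ± 16.1 CPM in Ctrl (SD, n = 3 each). In rank, Rhox6 lay above 90.2% of tested genes by mean CPM in Ezh2 KO and above 79.1% in Ctrl, and Rhox9 above 88.0% in Ezh2 KO and 76.5% in Ctrl.

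Across the whole table edgeR called 0 genes (0% of 16420, adjusted p under 0.05), with 459 genes at an unadjusted p under 0.05. Limma-voom called 0 with 466 at that unadjusted p, DESeq2 called 5 with 737, and DESeq2 with a term for the replicate number called 50 with 1270. Total counts ran from 27072150 to 49382146 per library. On the first principal component Ezh2 KO replicate 2 and Ctrl replicate 1 stood apart at opposite ends. Without both libraries the log2 fold change was 0.90 for Rhox6 and 0.85 for Rhox9.

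The other Rhox genes that could be tested scattered around 0. Besides the pair, 25 of the 30 other Rhox genes listed were found by ID, and 16 were abundant enough to test. Of these 16, 0 passed edgeR in either direction, 9 had a positive and 7 a negative log2 fold change, and the median was 0.11, beside 0.01 over all tested genes. The 16 include the 5 Rhox2 and 7 Rhox4 copies, whose counts may rest on the same reads, so the tally is not one of independent genes. Summed over the 25, the level was 50.5, 70.0 and 56.9 CPM in Ezh2 KO replicates 1 to 3 and 46.9, 59.1 and 70.6 CPM in Ctrl replicates 1 to 3, and the groups overlapped. Of the reads counted on the 27 Rhox genes found, Rhox6 and Rhox9 together held 77.8% to 83.3% in the Ezh2 KO libraries. In the Ctrl libraries they held 60.9% to 69.6%. Rhox5, which lies next to Rhox6 in the annotation, and Rhox2d, Rhox2e, Rhox2f and Rhox3f were matched by no ID and were not analysed here. They are in none of these sums and shares, so the share of the pair in the whole cluster is unknown.

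Rhox10, which helps to establish spermatogonial stem cells, was the 1 gene of those 16 whose libraries did not overlap. It read 0.963, 1.35 and 1.01 CPM in Ezh2 KO replicates 1 to 3, against 0.680, 0.461 and 0.566 CPM in Ctrl replicates 1 to 3. All Ezh2 KO libraries were higher, at a low level of 35 to 41 reads in Ezh2 KO and 13 to 33 reads in Ctrl. Its log2 fold change of 0.94 ± 0.37 (SE) did not pass edgeR (adjusted p = 0.976, unadjusted p = 0.0321). Of the 16 genes, 1 was thus above in all libraries and 0 were below, against 4.07% and 4.03% of all tested genes.

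Between Rhox6 and Rhox9 in the annotation lie Rhox7a, Rhox8 and Rhox7b, and few reads fell on them. Rhox7a held 21, 8 and 16 reads in Ezh2 KO and 10, 8 and 5 reads in Ctrl, or 0.422 ± 0.128 CPM in Ezh2 KO and 0.222 ± 0.0553 CPM in Ctrl, and was too low to test, though its CPM was higher in all Ezh2 KO libraries. Rhox7b was at 0.654 ± 0.137 CPM in Ezh2 KO and 0.603 ± 0.396 CPM in Ctrl (log2 fold change 0.09). The Rhox7 genes share 58.8% and 70.8% of their 50-base windows with another gene, so their separate values are uncertain. Rhox8, known from the somatic cells of the gonad, was listed at 0 reads in the 3 Ezh2 KO libraries and at 1, 11 and 1 in the Ctrl libraries, too few to test.

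The tandem copies on the proximal side of the cluster overlapped between groups. The 7 Rhox4 genes, of which Rhox4b is known as Ehox from differentiating embryonic stem cells, summed to 26.7, 42.0 and 31.6 CPM in Ezh2 KO and 21.3, 31.8 and 36.5 CPM in Ctrl, with log2 fold changes of -0.01 for Rhox4a to 0.32 for Rhox4b and with Rhox4c, Rhox4d, Rhox4e, Rhox4f and Rhox4g between. The 5 Rhox2 genes summed to 8.66, 12.6 and 10.4 CPM in Ezh2 KO and 10.7, 11.9 and 15.2 CPM in Ctrl, from -0.81 for Rhox2g to 0.29 for Rhox2c, with Rhox2a, Rhox2b and Rhox2h between. Because their reads recur among copies and the handling of such reads is unknown, the single values and the sums are both uncertain. The 5 Rhox3 genes found held 0 to 5 reads in all in an Ezh2 KO library and 4 to 9 in a Ctrl library.

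At the ends of the cluster, Rhox1 stood at 7.60 ± 1.41 CPM in Ezh2 KO and 7.84 ± 0.571 CPM in Ctrl (log2 fold change -0.05 ± 0.25 SE). Rhox13, a homeobox gene of fetal and neonatal germ cells, stood at 4.95 ± 1.16 CPM in Ezh2 KO and 6.65 ± 2.31 CPM in Ctrl (-0.42 ± 0.34 SE). Rhox12 was too low to test, at 0.294 ± 0.225 CPM in Ezh2 KO and 0.1996 ± 0.164 CPM in Ctrl (SD, n = 3 each). The groups overlapped for each of these 3 genes.

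**Figure D3:**
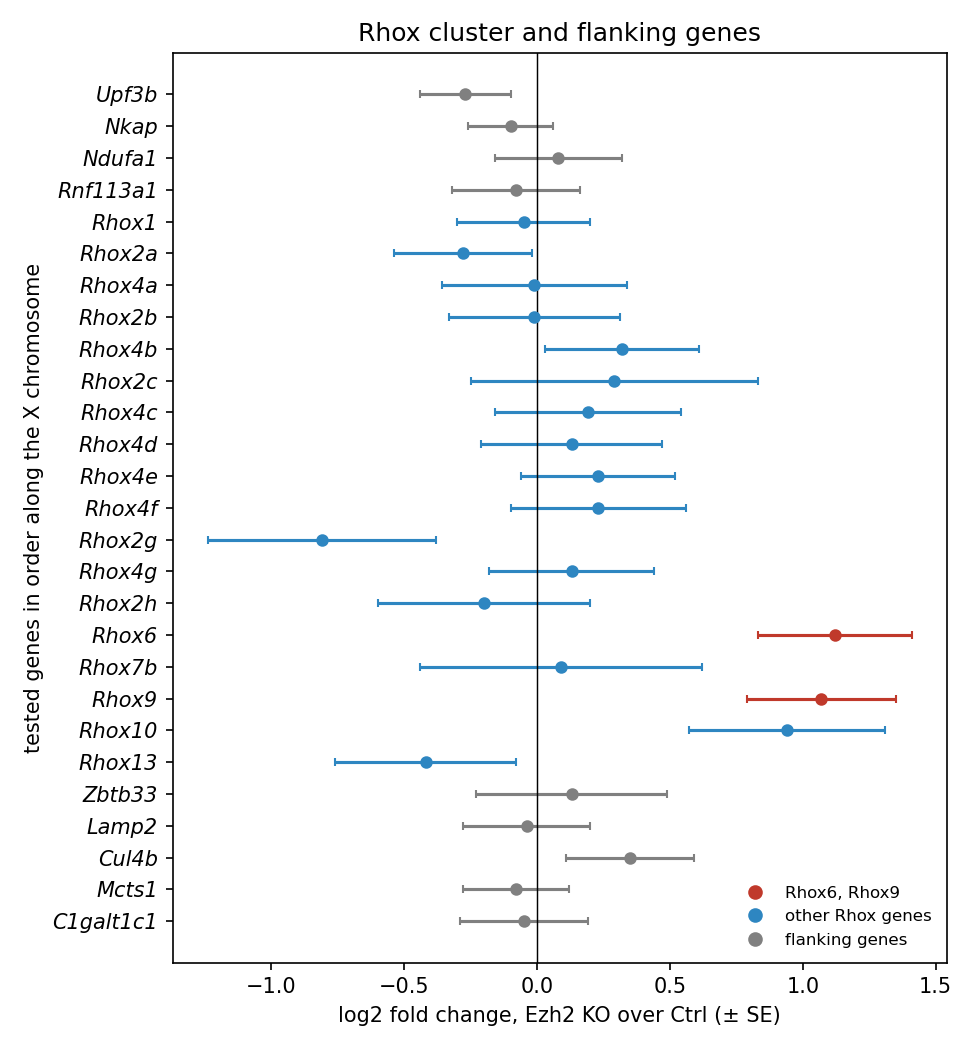
Log2 fold change, Ezh2 KO over Ctrl, with its SE (bars) for the tested Rhox genes and their flanking genes, in their order along the X chromosome from top to bottom. Rhox6 (1.12), Rhox9 (1.07) and Rhox10 (0.94) lie to the right, and the flanking genes between -0.27 and 0.35.

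The flanks of the cluster lay near 0. Of 12 flanking genes, 9 were tested, 0 passed edgeR, and the median log2 fold change was -0.05, within -0.27 to 0.35. Upf3b, of nonsense-mediated decay, was lower in all Ezh2 KO libraries (38.6 ± 2.81 CPM in Ezh2 KO, 46.5 ± 4.20 CPM in Ctrl). Cul4b, a ubiquitin ligase scaffold, was higher in all of them (374 ± 19.4 CPM in Ezh2 KO, 295 ± 94.6 CPM in Ctrl), with Ctrl replicate 1 alone at 185 CPM. Thus 1 of the 9 was above and 1 below in all libraries, against 4.07% and 4.03% of all tested genes. Nkap, a transcriptional regulator, was at 52.6 ± 2.81 CPM in Ezh2 KO and 56.5 ± 2.70 CPM in Ctrl (SD, n = 3 each). Over the 770 tested genes of the X chromosome the median log2 fold change was 0.09 and 59.2% were positive, beside 0.00 and 50.1% for 14829 autosomal genes. A log2 fold change of at least 1 was found in 4.68% of the X-linked genes and 1.44% of the autosomal ones, a contrast that is described only. The X median was -0.015 without Ezh2 KO replicate 2 and -0.093 without that library and Ctrl replicate 1.

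Genes that write, maintain or remove DNA methylation, or write H3K9 methylation, were followed as a list of 11. All 11 were tested and 0 passed edgeR, with 4 positive, 7 negative and a median of -0.09. Over all tested genes 51.3% were positive and the median was 0.01. Dnmt3b, a de novo DNA methyltransferase, was at 54.9, 75.8 and 91.3 CPM in Ezh2 KO and 47.6, 44.4 and 51.9 CPM in Ctrl, with no overlap (log2 fold change 0.63 ± 0.21 SE; edgeR adjusted p = 0.976, unadjusted p = 0.0184). Thus 1 of the 11 was above in all libraries and 0 were below, against 4.07% and 4.03% of all tested genes. Of the dioxygenases that start DNA demethylation, Tet1 was at 335 ± 74.2 CPM in Ezh2 KO and 244 ± 67.5 CPM in Ctrl, and Tet2 at 98.9 ± 9.60 CPM in Ezh2 KO and 128 ± 31.6 CPM in Ctrl (SD, n = 3 each). Both overlapped between groups.

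Germline genes that promoter DNA methylation is known to hold silent formed a list of 20, all tested, of which 0 passed edgeR. Of these, 15 were positive and 5 negative, with a median log2 fold change of 0.12. Over all tested genes 51.3% were positive and the median was 0.01, and the difference from that share was not tested. Piwil2, of the piRNA pathway, was at 62.9, 25.1 and 28.7 CPM in Ezh2 KO and 17.4, 27.04 and 19.5 CPM in Ctrl, and Ezh2 KO replicate 1 stood far above the other libraries. Brdt, a bromodomain gene of spermatogenesis, was at 2.21 ± 0.527 CPM in Ezh2 KO and 1.35 ± 0.156 CPM in Ctrl, without overlap. Sycp1 was lower in all Ezh2 KO libraries (5.66 ± 0.292 CPM in Ezh2 KO, 7.15 ± 0.320 CPM in Ctrl). Thus 1 of the 20 was above and 1 below in all libraries, against 4.07% and 4.03% of all tested genes. Tex19.1, which restrains retrotransposons in germ cells, was at 115 ± 26.5 CPM in Ezh2 KO and 88.1 ± 7.63 CPM in Ctrl (SD, n = 3 each), with overlap.

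Markers of the labelled cell type were present in both groups. All 12 germ cell and pluripotency markers were abundant enough to test, with a summed level of 1360 to 1775 CPM in Ezh2 KO and 1687 to 1883 CPM in Ctrl. Of the 12, 0 passed edgeR, 9 were negative and 3 positive, and the median log2 fold change was -0.24. The positive ones were Nanos3 (log2 fold change 0.28), Itgb3 (0.19) and Prdm14 (0.02). The groups overlapped for each marker: 0 of the 12 were above and 0 below in all libraries, against 4.07% and 4.03% of all tested genes. Over all tested genes 51.3% were positive and the median was 0.01. Tfap2c, a specification factor, was at 227 ± 73.0 CPM in Ezh2 KO and 300.2 ± 20.1 CPM in Ctrl. Prdm1, another, was at 4.30 ± 1.31 CPM in Ezh2 KO and 5.96 ± 1.23 CPM in Ctrl. Dppa3, a marker of nascent germ cells, was at 182 ± 52.5 CPM in Ezh2 KO and 222 ± 28.6 CPM in Ctrl (SD, n = 3 each). Their part in the level of the pair was not tested.

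Trophoblast is the other tissue known for Rhox6 and Rhox9. Both marker lists below include genes named after their values were seen, to show the most abundant and the absent members. Over all tested genes 51.3% were positive and the median log2 fold change was 0.01. Of 15 trophoblast markers, 11 were tested, 0 passed edgeR, 5 were positive and 6 negative with a median log2 fold change of -0.10, and the summed level was 68.1 to 80.4 CPM in Ezh2 KO and 64.0 to 81.3 CPM in Ctrl. Most of that sum came from Krt7, an epithelial keratin (23.0 ± 5.11 CPM in Ezh2 KO, 20.5 ± 7.67 CPM in Ctrl), Eomes, a trophoblast and germ layer regulator (12.5 ± 1.41 CPM in Ezh2 KO, 10.3 ± 0.874 CPM in Ctrl), Esx1, a placental homeobox gene (10.4 ± 4.10 CPM in Ezh2 KO, 13.8 ± 4.92 CPM in Ctrl), and Gata3, a trophoblast transcription factor (9.25 ± 3.57 CPM in Ezh2 KO, 7.12 ± 2.02 CPM in Ctrl). Eomes and Elf5 were higher in all Ezh2 KO libraries, and Cdx2 was lower in all of them. Thus 2 of the 11 were above and 1 below, against 4.07% and 4.03% of all tested genes. Tpbpa and Prl3d1, which define placental cell layers, had 0 reads in every Ezh2 KO library, and in the Ctrl libraries 2 reads (Tpbpa, replicate 3) and 4 reads (Prl3d1, replicate 2) at most. Cdx2, a trophoblast and posterior regulator, was at 0.375 ± 0.121 CPM in Ezh2 KO and 0.851 ± 0.186 CPM in Ctrl. Elf5, a trophoblast stem cell factor, was at 1.16 ± 0.350 CPM in Ezh2 KO and 0.549 ± 0.170 CPM in Ctrl, and Ascl2, of trophoblast progenitors, was at 1.03 ± 0.225 CPM in Ezh2 KO and 1.51 ± 0.392 CPM in Ctrl. Of 12 markers of extraembryonic endoderm, 8 were tested, 0 passed edgeR, 3 were positive and 5 negative with a median of -0.13, and they summed to 15.5 to 24.1 CPM in Ezh2 KO and 19.4 to 20.9 CPM in Ctrl. Lama1, a basement membrane laminin, was at 6.96 ± 1.03 CPM in Ezh2 KO and 8.32 ± 1.31 CPM in Ctrl, and Amn, a receptor of visceral endoderm, at 7.11 ± 3.21 CPM in Ezh2 KO and 5.40 ± 0.896 CPM in Ctrl. Dab2, an endocytic adaptor, was at 2.24 ± 0.840 CPM in Ezh2 KO and 1.47 ± 0.335 CPM in Ctrl, and Sox7, an endoderm transcription factor, at 2.12 ± 0.733 CPM in Ezh2 KO and 2.14 ± 0.134 CPM in Ctrl. Ttr and Foxa2, of endoderm, had 0 reads in every Ezh2 KO library and 2 reads each in Ctrl replicate 1. Sox17, an endoderm regulator, was at 0.152 ± 0.148 CPM in Ezh2 KO and 0.508 ± 0.115 CPM in Ctrl, the lipoprotein gene Apoa1 at 0.491 ± 0.196 CPM in Ezh2 KO and 0.258 ± 0.0567 CPM in Ctrl, and Gata6, a primitive endoderm factor, at 0.607 ± 0.130 CPM in Ezh2 KO and 1.13 ± 0.483 CPM in Ctrl (SD, n = 3 each). Among the 8 tested endoderm markers, 0 were above in all Ezh2 KO libraries and 1, Sox17, was below, against 4.07% and 4.03% of all tested genes. Sox17 had few reads, 6, 0 and 12 in Ezh2 KO replicates 1 to 3 and 31, 12 and 13 in Ctrl replicates 1 to 3. The part of these markers in the level of the pair was not tested.

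Outside the cluster, the 5 genes nearest in pattern to the pair were Xaf1, Bpifb4, Lcp1, Abcb1b and Kng2. Likeness was measured as the root mean square difference between centred log2 CPM over the 6 libraries, among 12376 genes whose mean log2 CPM was 1 or more, and the median gene lay at 0.698. Since the pair was chosen for a higher level in Ezh2 KO, genes near it share that difference by construction. Xaf1, a gene of apoptosis, lay nearest at 0.119, with 10.2, 15.3 and 16.1 CPM in Ezh2 KO and 4.04, 5.36 and 9.16 CPM in Ctrl. It had the same order of libraries as Rhox6. Bpifb4 lay at 0.155, with 2.60 ± 0.819 CPM in Ezh2 KO and 1.32 ± 0.356 CPM in Ctrl. Lcp1, which encodes an actin-bundling protein, lay at 0.199, with 31.6 ± 6.66 CPM in Ezh2 KO and 14.8 ± 5.50 CPM in Ctrl. Abcb1b, a drug efflux pump, lay at 0.2, with 18.3 ± 3.16 CPM in Ezh2 KO and 8.88 ± 1.74 CPM in Ctrl. Kng2, a kininogen, lay at 0.207, with 4.68 ± 1.596 CPM in Ezh2 KO and 2.34 ± 0.425 CPM in Ctrl (SD, n = 3 each). These genes lie on chromosomes 11, 2, 14, 5 and 16, not on X.

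**Figure D4:**
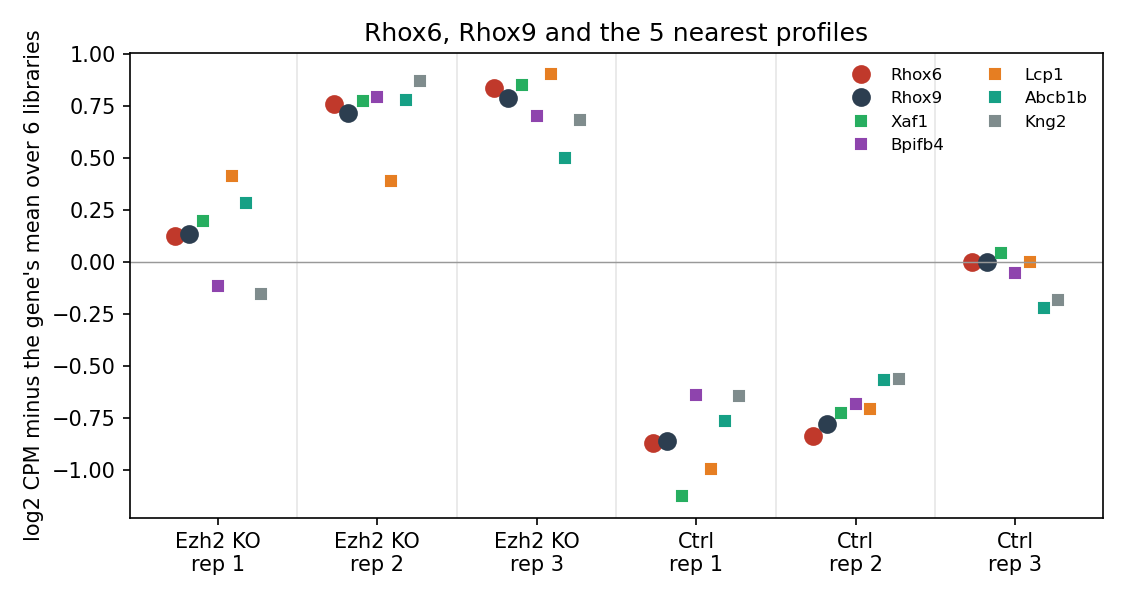
Log2 CPM of each gene minus its mean over the 6 libraries, for Rhox6 and Rhox9 (circles) and the 5 genes nearest in pattern (squares). Rhox6 and Rhox9 differ by 0.036 as a root mean square, and Ctrl replicate 3 is the highest Ctrl library for both.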

How the data were processed

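RNA-seq was analysed in 3 Ezh2 KO and 3 Ctrl libraries. The authors deposited raw read counts for each Ensembl gene; CASAVA 1.8.4, Trimmomatic 0.33, TopHat2 2.0.11, featureCounts and the builds mm9 and NCBIM37 are named, per the submitters' processing notes. Strand use is not given in the sources used here, so overlapping transcripts cannot be told apart. GENCODE M21 (GRCm38) gave symbols by ID for 32919 of 37991 IDs, the order of genes, transcript lengths and sequences; its coordinates, of another build, are not printed.

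The 16420 genes kept by filterByExpr (minimum count 10) were scaled by TMM and tested with the robust quasi-likelihood F-test of edgeR 4.0.16 (R 4.3.3), two-sided, with Benjamini-Hochberg adjustment over all of them and a threshold of 0.05. The test was checked on simulated counts with larger changes than those of the pair and less spread between libraries. That check does not measure the power of the test in these data. DESeq2 1.42.0 and limma 3.58.1 (voom) were alternatives. CPM are TMM-scaled; SEs derive from the F statistic.

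Same-numbered libraries deviated together from their group means (r = 0.583, 0.368 and 0.192 for numbers 1 to 3), while pairs of different number ran from -0.522 to 0.297, the highest for Ezh2 KO 2 with Ctrl 3. All 3 same-number values exceed 0.1, so the number was taken to pair the libraries. P-values printed beside a gene are nonetheless from tests that ignore this pairing, the permutation test included, except the Ezh2 value given with the replicate term. The blocked fit is an alternative.

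Genes named were the pair, other Rhox genes with at least 10 counts in a library, Ezh2 and core PRC2, the 5 nearest profiles, and up to 3 genes of smallest p per list. Sfmbt2, Gm8624, Sycp1 and, of the trophoblast and endoderm lists, Krt7, Eomes, Esx1, Gata3, Tpbpa, Prl3d1, Lama1, Amn, Dab2, Sox7, Ttr and Foxa2 fall outside that rule and were named after their values were seen. So do Nanos3, Itgb3 and Prdm14, the positive members of the germ cell list. The pair and the lists were chosen with earlier results of these data known.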

Additional observations from a re-analysis of the deposited data

How the results depend on the processing

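The log2 fold change of Rhox6 stayed between 0.90 and 1.43 and that of Rhox9 between 0.85 and 1.36 over 15 alternatives each. Leaving out each library in turn gave 0.96 to 1.43 for Rhox6, 0.91 to 1.36 for Rhox9 and 0.94 to 1.40 for their sum, highest without Ctrl replicate 3. Under a replicate block the log2 fold changes were 1.14 for Rhox6, 1.09 for Rhox9 and 1.12 for their sum. With the block edgeR still called 0 genes, at a smallest adjusted p of 0.158, against 0.976 without it. In edgeR 1495 genes had an unadjusted p under 0.05 with the block, against 459 without it. The number of called genes was 5 in DESeq2 and 50 in DESeq2 with the block, a fit chosen after seeing the data; 0 genes of the other lists passed in any of the 15 alternatives. The 668 genes with all Ezh2 KO libraries above all Ctrl libraries became 1241 to 2271 with 1 library left out and 2713 without Ctrl replicate 1 and Ezh2 KO replicate 2, where fewer libraries have to be ordered; that count has no value under the block, DESeq2 or voom. The X median was -0.093 without those 2 libraries, a removal also chosen after seeing the data, and -0.015 without Ezh2 KO replicate 2 alone, against 0.087 with all; the cause was not tested. The Ezh2 log2 fold change ran from -0.71 to -0.37, nearest 0 without Ezh2 KO replicate 1. The summed pair was not refitted in DESeq2 or voom. Genes left untested for few counts, such as Rhox8 and the Rhox3 genes, are limited by depth.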
